A study of Mus musculus with 8 samples.

Results

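*Ptk7* and 9 further genes of planar cell polarity, *Vangl1*, *Vangl2*, *Celsr1*, *Celsr2*, *Celsr3*, *Ror1*, *Ror2*, *Prickle1* and *Prickle2*, were followed through reduced representation bisulfite sequencing (RRBS) of hepatocytes. A CpG belonged to a gene when it lay in the gene body or in the 1500 bases before the start site on mm10, and it was tested when each of the 8 mice had at least 5 reads there. By this rule the 10 genes held 1294 of the 897285 tested CpGs, of which 151 were in *Ptk7* and 1143 in the 9 others. *Ptk7* was picked because it held called CpGs, so its age difference is described here without a test. The hepatocytes, isolated by liver perfusion, came from 4 mid-aged (40 weeks) and 4 young (10 weeks) mice, all female C57Bl6/J, and the labels name no treatment other than the perfusion. Each mouse gave 1 library.

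Planar cell polarity is the alignment of cells within the plane of a tissue. It depends on transmembrane complexes at opposite sides of each cell, in which Celsr cadherins bridge neighboring cells, Vangl proteins recruit the cytoplasmic Prickle proteins, and Frizzled receptors recruit Dishevelled. Ror1, Ror2 and the catalytically inactive receptor kinase Ptk7 bind or sense Wnt proteins such as Wnt5a and feed into the same pathway, which is best known from neural tube closure, the inner ear and, in the liver, from bile duct development. CpG-rich start sites are usually unmethylated and gene bodies methylated in somatic cells.

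RRBS reads the ends of fragments cut at CCGG by *Msp*I, and the methylation level is the percent of reads that kept their cytosine after bisulfite treatment. Counting a read at every CpG it covers, the reads over CpGs numbered 84639955 to 118395064 per mid-aged and 46321447 to 72710972 per young library, and the median coverage of a tested CpG was 41 to 76 reads against 29 to 51. The mean methylation of all tested CpGs was 44.2 to 44.3% in mid-aged and 43.6 to 44.1% in young mice. Of the reads over CpGs, 24.9, 33.0, 39.1 and 30.4% were methylated in mid-aged mice 1 to 4 and 56.1, 33.0, 43.9 and 47.9% in young mice 1 to 4, so that 3 young mice were above all mid-aged mice, and the part of this in the results was not tested. Marker genes of liver cell types were sparsely covered around their start sites, as 3 of 10 hepatocyte markers, 2 of 10 Kupffer cell and leukocyte markers, 4 of 9 sinusoidal endothelial, 6 of 8 stellate cell and 3 of 6 cholangiocyte markers had a tested CpG. None of these CpGs was called by the quasi-binomial test, beside 0.163% of all tested CpGs, and with so few CpGs nothing is read from this.

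The start of *Ptk7* had higher methylation in mid-aged than in young mice over a stretch that began before the start site and reached into intron 1. The last called CpG lay 970 bases after the start site and the next tested CpG at 1252, so the end of the stretch was not located. *Ptk7* (ENSMUSG00000023972.10) lies on the minus strand at chr17:46564471-46629504 and has 20 exons. The stretch is shown by 3 windows of the minus strand of mm10, read 5′ to 3′, in which capitals mark CpGs that were called, that is, whose means differed by 5 percentage points or more with an adjusted p under 0.05 in the quasi-binomial test, provided that the variance within each age was under 0.05. The first is the 250 bases before the start site (chr17:46629505-46629754, also in the RefSeq promoter table), with 5 tested CpGs and 4 called. The second, in intron 1 (chr17:46628934-46629159), had 22 tested CpGs and 16 called, the most of the 3 windows. The third, further into intron 1 (chr17:46628524-46628689), had 10 tested CpGs, 5 of them called, among them 2 of the 3 with the largest differences.
Ptk7 before the start site: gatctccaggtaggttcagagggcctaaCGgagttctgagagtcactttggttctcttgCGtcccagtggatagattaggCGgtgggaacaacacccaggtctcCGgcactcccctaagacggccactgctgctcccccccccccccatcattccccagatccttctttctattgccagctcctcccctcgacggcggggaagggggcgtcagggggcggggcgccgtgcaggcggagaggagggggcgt
Ptk7 intron 1, first window: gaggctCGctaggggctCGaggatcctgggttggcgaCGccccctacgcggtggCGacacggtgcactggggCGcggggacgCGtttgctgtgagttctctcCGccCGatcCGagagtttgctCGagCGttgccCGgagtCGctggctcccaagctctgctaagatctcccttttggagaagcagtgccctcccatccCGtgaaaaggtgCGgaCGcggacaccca
Ptk7 intron 1, second window: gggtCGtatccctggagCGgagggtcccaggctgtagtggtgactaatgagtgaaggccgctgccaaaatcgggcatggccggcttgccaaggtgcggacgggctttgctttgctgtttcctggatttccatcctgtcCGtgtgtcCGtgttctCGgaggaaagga

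The 300 bases around the *Ptk7* start site in the RefSeq table held 22 CpGs, and 76.9% of the 32851 promoter windows of that length held fewer. One *Msp*I site (CCGG, the same on both strands) was found there, and 52.8% of the windows hold at least 1. The GC box GGGCGG, searched on both strands, occurred 1 time, and 35.7% of the windows contain it. The first 1000 bases of the gene held 90 CpGs, of which 65 were tested, and 11 *Msp*I sites.

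Averaged over its 65 tested CpGs, the start zone of *Ptk7* (the first 1000 bases of the gene) was methylated to 33.2, 30.9, 30.8 and 32.2% in mid-aged mice 1 to 4 and to 10.1, 9.79, 10.3 and 11.5% in young mice 1 to 4. Every mid-aged mouse was above every young mouse, and the mice of one age lay close together. The means were 31.8% ± 1.16 and 10.4% ± 0.762 (SD, n = 4), and they differed by 21.4 percentage points. The upstream zone, with 6 tested CpGs in the 1500 bases before the start site, stood at 38.5, 41.0, 39.9 and 40.8% in the mid-aged mice and at 12.5, 20.5, 18.9 and 20.8% in the young. Again the groups did not overlap, and the lowest young value belonged to mouse 1. The rest of the gene, from 1000 bases after the start site to its end, was highly methylated at both ages, at 87.0% ± 1.12 and 86.0% ± 1.12 (SD, n = 4) over 80 CpGs, and there the groups overlapped.

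Of the 151 tested CpGs of *Ptk7*, 32 were called, all with higher methylation in mid-aged mice, while 0.163% of all tested CpGs were called in either direction and 0.0615% as higher. The groups did not overlap at 57 of the 151, against 3.57% of all tested CpGs. Since *Ptk7* was picked for its calls, nothing is read from these shares. By place, 5 of the calls lay before the start site, 2 in the 5′ UTR, 1 in the coding part of exon 1 and 24 in intron 1. The 32 called CpGs together averaged 42.3% ± 0.961 for mid-aged and 12.9% ± 2.06 for young mice (SD, n = 4). The 38 tested CpGs of the start zone that were not called also had higher means in mid-aged mice in 36 cases, with a median difference of 14.4 percentage points.

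**Figure D1:**
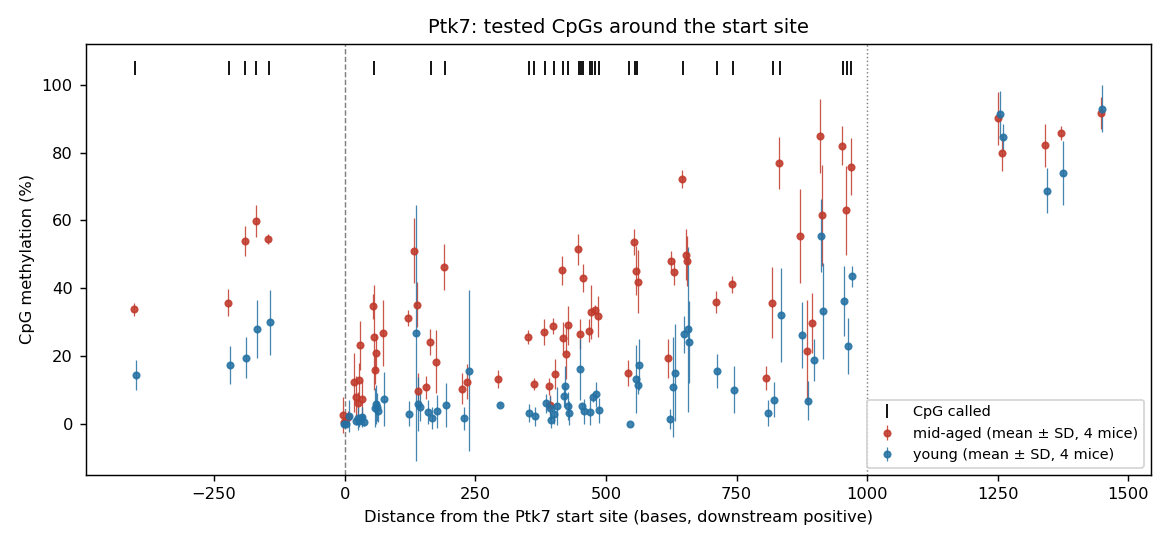
Methylation (%) of each tested CpG of *Ptk7* against its distance from the start site (bases, dashed line at 0, dotted line at the end of the start zone). Points and bars give the mean ± SD of 4 mid-aged (red) and 4 young (blue) mice, and ticks on top mark the 32 called CpGs, which lie between -402 and 970.

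Along the DNA the levels dipped at the start site and climbed into intron 1 at both ages. At -402 the mid-aged mean was 33.7% ± 2.03 and the young mean 14.3% ± 4.40, and at -169 the means were 59.8% ± 4.65 and 27.8% ± 8.55 (SD, n = 4). At the start site itself methylation was low at both ages. The CpG at -2 was not called, and the 8 CpGs in the first 35 bases of the 5′ UTR averaged 9.05% ± 2.82 and 1.26% ± 0.958, with none called. From base 56 of the 5′ UTR the level was higher again, at 25.4% ± 1.31 and 6.34% ± 1.52 over 12 CpGs. In the start-zone part of intron 1, with 42 tested CpGs, it reached 38.6% ± 1.11 in mid-aged and 13.5% ± 1.49 in young mice, and the mean was higher in mid-aged mice at all 42.

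Within 1500 bases of the start site the CpGs were grouped by *Msp*I fragment, each given by the distance of its first and last tested CpG, so that CpGs on the same reads count together. The fragment from -221 to -145 was at 48.8 to 52.9% in mid-aged and 16.1 to 27.4% in young mice. The fragment over the start site (-2 to 74, 14 CpGs) was the lowest of those with at least 4 tested CpGs, at 11.8 to 19.6% and 1.39 to 4.82%. The fragment with the most calls, 12 of 17 CpGs between 352 and 480, was at 25.8 to 28.4% and 4.29 to 6.65%. Further in, the fragment from 911 to 1252 was at 70.7 to 80.6% and 42.2 to 52.3%. In the next, from 1259 to 1449, the groups met, at 81.3 to 88.3% and 76.3 to 85.5%, with 0 of 4 CpGs called. At 2 of these 4 the ages did not overlap, beside 3.57% of all tested CpGs. Within 1500 bases of the start site, where fragments were compared, 8 of the 9 with at least 4 tested CpGs kept all mid-aged mice above all young mice, and the difference of the means among these 8 ran from 11.6 to 29.4 percentage points. The share of such fragments over the genome was not counted. Because *Ptk7* was picked for its calls, nothing is read from this count.

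**Figure D2:**
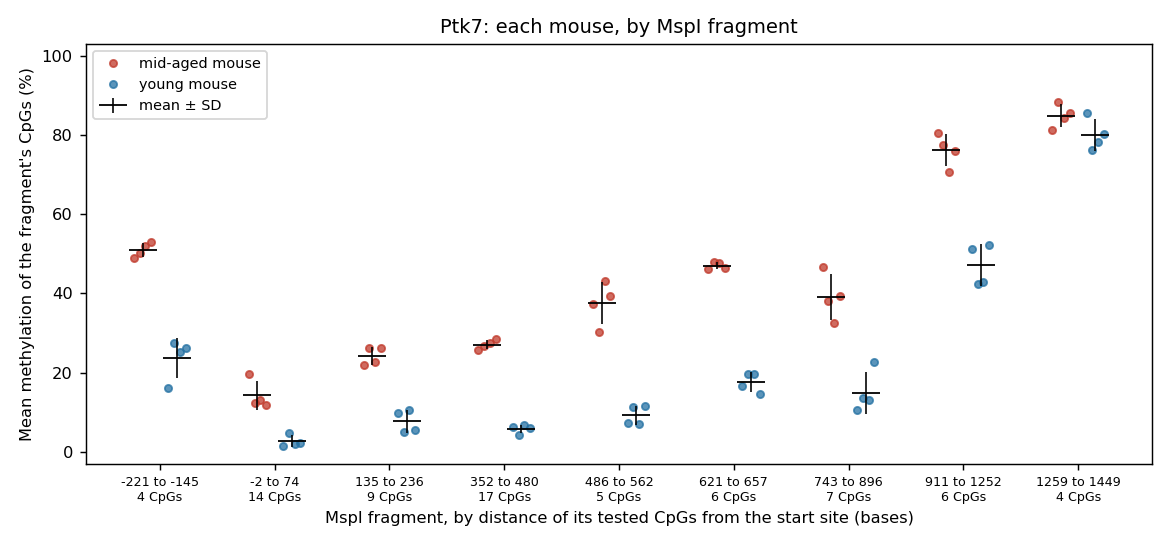
Mean methylation (%) of the tested CpGs of each *Msp*I fragment within 1500 bases of the *Ptk7* start site that holds at least 4 of them, one point per mouse (mid-aged red, young blue), with the mean ± SD of 4 mice in black. The groups are apart in every plotted fragment from -221 up to 1252 and overlap from 1259 to 1449.

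The 3 called CpGs with the largest differences all lay in intron 1. At chr17:46628550 (954 bases after the start site) mid-aged mice 1 to 4 showed 83.3, 86.8, 73.7 and 84.0% and young mice 1 to 4 showed 50, 29.8, 26.9 and 37.9%. The closest mice were mid-aged mouse 3, with a 95% Wilson interval of 61.0 to 83.4% from 57 reads, and young mouse 1, with 26.8 to 73.2% from 14 reads, so this pair was not separated by counting error. At chr17:46628856 (648 bases) the values were 76.0, 69.6, 71.1 and 72.1% against 20, 23.5, 30.8 and 31.2%, with as few as 5 reads in young mouse 1. At chr17:46628671 (833 bases) they were 87.5, 77.3, 69.9 and 72.7% against 13.8, 29.3, 43.5 and 41.7%, with at least 16 reads in every mouse. The differences of the means were 45.8, 45.8 and 44.8 percentage points, and in each case no young mouse reached a mid-aged mouse. Reads from PCR without molecular identifiers are not independent molecules, so such intervals cover counting error only.

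Beyond the start zone no CpG of *Ptk7* was called. In intron 1 past the first 1000 bases, 51 CpGs averaged 84.3% ± 1.57 in mid-aged and 83.1% ± 1.71 in young mice (SD, n = 4). The 18 CpGs in later introns stood at 91.2% ± 0.791 and 90.1% ± 1.07, and the 11 in later coding exons at 92.9% ± 1.17 and 92.8% ± 0.772. The widest gap in the body, 27.2 percentage points at chr17:46594947, came with an SD of 22.1 in the young mice and overlapping groups.

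CpG density differed along the start zone as well. The 18 CpGs with at least 25 CpGs within 100 bases on either side had 1 call and means of 18.6% and 4.50%, the 31 with 15 to 24 had 18 calls and means of 32.7% and 8.48%, and the 16 with fewer had 8 calls and means of 44.8% and 20.8%. Density and distance from the start site change together here, and their parts cannot be told apart.

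The long noncoding RNA gene Gm26904 (chr17:46471501-46825221, plus strand) spans all of *Ptk7*, and *Klc4*, a kinesin light chain gene, reaches into the 1500 bases upstream without a tested CpG there. Outside *Ptk7*, Gm26904 held 305 tested CpGs on one side and 472 on the other, with 0 called by the quasi-binomial test on either side and median differences of 0.31 and 0.17 percentage points. In the 50 kb past the end of *Ptk7* the mean methylation was 46.8% ± 0.303 and 46.2% ± 0.885, and in the 50 kb upstream 57.6% ± 0.0916 and 56.9% ± 0.230 (SD, n = 4).

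The size of the start-zone difference depended little on single mice, as it lay between 20.9 and 21.7 percentage points with any mouse left out. It was 17.4 from reads of the forward strand alone (40 CpGs) and 25.5 from the reverse strand (26 CpGs). The number of called CpGs in *Ptk7* was less stable. It fell to 19 without mid-aged mouse 1 or young mouse 2 and to 15 without any other of the mid-aged mice, and limma on M values (log2 ratios of methylated to unmethylated share) called 8. At the coverage limit, 9 CpGs of the upstream and start zones whose lowest coverage was 5 reads averaged 44.4% in mid-aged and 15.7% in young mice, and 5 CpGs left out at 4 reads averaged 36.7% and 11.6%. The mean over the hepatocyte, endothelial and cholangiocyte markers was higher in mid-aged mice by 2.5, 1.4 and 2.7 percentage points, with overlapping groups. For the Kupffer cell and leukocyte and the stellate cell markers the differences were 0.03 and -0.37, also with overlap. Genes of one list went both ways, with *Apob* at 7.65, *Fgb* at 4.15 and *Hnf4a* at -4.28 among the hepatocyte markers. Among the endothelial markers *Stab1* was at 10.4, *Erg* at 0.33, *Kdr* at -0.0056 and *Tie1* at -5.08. The 3 hepatocyte markers averaged 12.7 to 21.5% in mid-aged and 10.4 to 17% in young mice, the 3 cholangiocyte markers 28.0 to 30.6% and 20.8 to 28.5%, the 6 stellate cell markers 18.1 to 19.7% and 18.6 to 20.4%, the 4 endothelial markers 43.5 to 48.6% and 38.8 to 49.0%, and the 2 Kupffer cell and leukocyte markers 85.8 to 96.1% and 81.4 to 93.7%. The part of these markers in the *Ptk7* difference was not tested.

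In the 9 other genes no CpG was called by the quasi-binomial test out of 1143, where 0.163% of all tested CpGs were. An unadjusted p under 0.05 was found at 96 of them (8.40%), against 9.09% of all tested CpGs, and limma on M values called 3. The groups did not overlap at 49 (4.29%), of which 25 were higher in mid-aged mice, against 3.57% of all CpGs. A difference of at least 20 percentage points either way was seen at 7 of these 1143 CpGs and at 42 of the 151 in *Ptk7*. Because *Ptk7* was picked for its calls, nothing is read from this contrast, and the share over all tested CpGs was not counted.

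**Figure D3:**
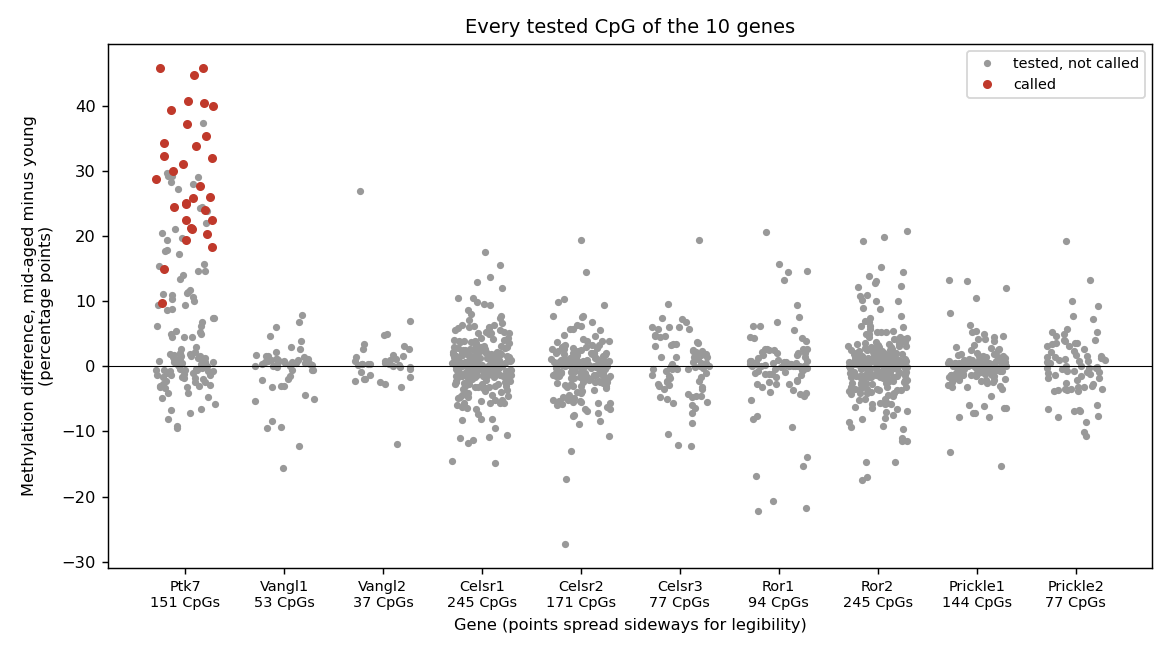
Difference in methylation, mid-aged minus young (percentage points), of every tested CpG of the 10 genes, with called CpGs in red. The 32 called CpGs are all in *Ptk7* and all above 0, and the other 9 genes scatter around 0.

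Ordered by the mean level in young mice, the start zones ran from *Vangl1* (0.559%), *Prickle1* (0.889%) and *Ror1* (1.13%) through *Ror2* (2.93%), *Celsr1* (3.19%), *Prickle2* (5.56%) and *Celsr3* (5.99%) to *Ptk7* (10.4%) and *Celsr2* (33.4%). Neighbors in this order overlapped between mice, except that *Ror2* was above *Ror1*, *Ptk7* above *Celsr3* and *Celsr2* above *Ptk7* in all 4 young mice. In mid-aged mice the same 9 genes gave 1.36, 0.893, 1.22, 3.16, 3.97, 3.95, 6.90, 31.8 and 34.3%, and the ranges of *Ptk7* (30.8 to 33.2%) and *Celsr2* (33.0 to 36.6%) touched. None of the 8 start zones other than *Ptk7* was called by limma, where 0.0615% of the 14645 start zones of all genes were, and none of the 10 bodies, where 0.593% of 16347 were. The 5 upstream zones tested beside that of *Ptk7* were not called either (0.0585% of 11970).

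**Figure D4:**
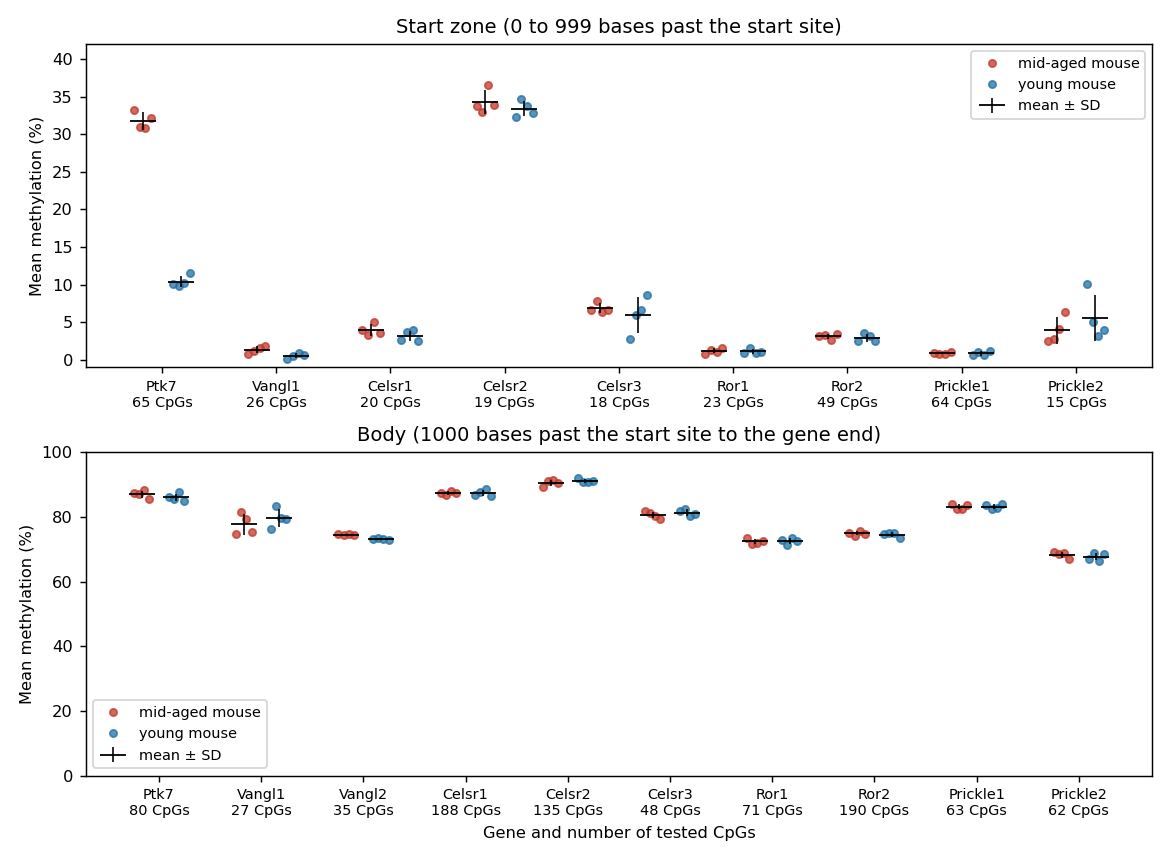
Mean methylation (%) of the start zone (top) and the body (bottom) of each gene, one point per mouse (mid-aged red, young blue), with the mean ± SD of 4 mice in black. *Vangl2* has fewer than 3 tested CpGs in its start zone and is shown by its body alone. The start zone of *Ptk7* is the one where the ages are far apart, at 31.8% and 10.4%.

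For each of the 9 genes without a call, the tested CpG with the largest difference is shown in 30 bases of the gene's own strand of mm10, with that CpG in capitals. These CpGs were chosen for their size, and they show how far the members moved without passing the test.
Vangl1 (chr3:102169215-102169244, minus strand): cctgcatgaagcccCGgggctctgtccttg
Vangl2 (chr1:172001815-172001844, minus strand): ctgtgtgtgtgctcCGgctgggtggcatcc
Celsr1 (chr15:85931998-85932027, minus strand): ttattgctcagcccCGggcctctacccagg
Celsr2 (chr3:108391965-108391994, minus strand): tgacaagccctgtcCGgccaggggcagaag
Celsr3 (chr9:108826175-108826204, plus strand): gagcagtggcggcgCGgagcgacgggcaga
Ror1 (chr4:100126796-100126825, plus strand): tcagacaggttctcCGcctttttctcctac
Ror2 (chr13:53121658-53121687, minus strand): gggagattgaaaacCGaatcacaggtaggt
Prickle1 (chr15:93515352-93515381, minus strand): aaccactcctcttaCGttggctacttttac
Prickle2 (chr6:92408627-92408656, minus strand): tgcctggaagcatcCGtgtgctgtaattat

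Both Vangl genes encode core membrane proteins that bind Prickle. The means of their tested zones differed by less than 2 percentage points between the ages, and for *Vangl2* this covers the body only. The start zone of *Vangl1* (26 CpGs) was at 0.810, 1.16, 1.63 and 1.83% in mid-aged mice 1 to 4 and at 0.0592, 0.585, 0.879 and 0.712% in the young. The difference of 0.80 percentage points (SE 0.29) had an adjusted p of 0.490 in limma. Its body was at 77.8% ± 3.25 and 79.6% ± 2.92 (SD, n = 4). Gm16160, an antisense gene, overlaps 22 of the tested CpGs, with 0 called. The CpG with the largest difference, in intron 4, showed 77.4% ± 13.1 and 93.1% ± 8.57 with overlapping groups (adjusted p = 0.539, quasi-binomial test). *Vangl2* had 2 tested CpGs in its start zone, in the 5′ UTR, at 51.5% ± 6.57 and 48.4% ± 5.44 for the first and 52.9% ± 9.49 and 64.8% ± 17.9 for the second, both with overlap. Its body includes CpGs near a further annotated start site, such as chr1:172027016 at 6.08% ± 0.833 and 5.73% ± 1.95. The body stood at 74.7, 74.5, 74.6 and 74.2% in the mid-aged mice and at 73.3, 73.6, 73.1 and 73.0% in the young. These groups did not overlap, but the difference of 1.27 percentage points (SE 0.71) was not called (adjusted p = 0.547, limma). A CpG in the 3′ UTR of *Vangl2* showed 84.6, 100, 90 and 95.8% against 40, 75, 75 and 72.7%, all mid-aged above all young, from 5 to 24 reads per mouse (adjusted p = 0.411, quasi-binomial test).

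The Celsr genes, whose atypical cadherins hold polarity complexes of adjacent cells together, differed more from each other than with age. The start zone of *Celsr1* (20 CpGs) was at 3.33 to 5.01% in mid-aged and 2.57 to 3.93% in young mice, and its upstream zone (37 CpGs) at 3.36 to 4.83% and 2.53 to 3.49%, with adjusted p-values of 0.737 and 0.523 in limma. That of *Celsr3* (18 CpGs) was at 6.40 to 7.89% and 2.80 to 8.58% (adjusted p = 0.853). In *Celsr2* (19 CpGs) the zone average of 34.3% ± 1.56 and 33.4% ± 1.01 (adjusted p = 0.922) came from separate classes of CpGs, as 11 were under 20% and 5 over 80% on average over the 8 mice. The first CpG over 50% lay 772 bases after its start site. In *Ptk7*, by contrast, no start-zone CpG averaged over 80% over the 8 mice, while 38 of 65 were under 20%. By age, 42 of the 65 were between 20 and 80% in mid-aged mice, against 11 in young mice. In mid-aged mice alone chr17:46628550 averaged 82.0%. The bodies were at 87.4 and 87.3% (*Celsr1*, 188 CpGs), 90.6 and 91.2% (*Celsr2*, 135 CpGs) and 80.6 and 81.3% (*Celsr3*, 48 CpGs). The largest single difference of the 9 genes was in the 3′ UTR of *Celsr2*, where mid-aged mice 1 to 4 showed 38.2, 54.3, 38.5 and 48.1% and young mice 1 to 4 showed 81.0, 57.1, 70 and 80%. All mid-aged mice were below all young mice, with at least 20 reads in each, and the difference of -27.2 percentage points did not pass (adjusted p = 0.274, quasi-binomial test). The largest differences in *Celsr1* (17.5, intron 10) and *Celsr3* (19.3, 131 bases upstream of the start site) came with overlapping groups and adjusted p-values of 0.754 and 0.694 in the quasi-binomial test.

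The Ror genes encode receptor tyrosine kinase-like proteins that bind Wnt5a. *Ror1* had a start zone of 0.791 to 1.60% in mid-aged and 0.861 to 1.62% in young mice (23 CpGs, adjusted p = 0.942, limma) and a body of 72.4% ± 0.811 and 72.6% ± 0.942 (SD, n = 4). In its intron 1, at chr4:100126810, mid-aged mice 1 to 4 showed 23.8, 21.9, 36.0 and 27.9% and young mice 1 to 4 showed 61.3, 41.4, 50 and 45.7%, from at least 46 reads each. The mid-aged mice were all lower (adjusted p = 0.106, quasi-binomial test). The lowest adjusted p of the 9 genes, 0.0631, was at chr4:100335757 in intron 4 of *Ror1*, with 86.0% ± 5.97 against 72.8% ± 1.07, and this CpG was called without young mouse 1. *Ror2* stood at 2.70 to 3.44% and 2.47 to 3.57% in its start zone (49 CpGs, adjusted p = 0.911) and at 20.5% ± 1.42 and 20.3% ± 1.98 in its upstream zone (6 CpGs, adjusted p = 0.968). Its body, with 190 tested CpGs, averaged 74.9% ± 0.655 and 74.5% ± 0.649. A CpG in its coding exon 5 differed by 20.8 percentage points with overlapping groups (adjusted p = 0.579, quasi-binomial test).

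The Prickle genes encode cytoplasmic LIM-domain proteins that bind Vangl. The start zone of *Prickle1* was densely covered, with 64 tested CpGs, and was nearly free of methylation in all mice, at 0.774 to 1.09% and 0.595 to 1.22% (adjusted p = 0.998, limma). Its body was at 83.2% ± 0.850 and 83.2% ± 0.793 (SD, n = 4). The transcript of *Prickle1* used to place its CpGs starts further in, at chr15:93519523, so the start zone lies outside that transcript. In its intron 1, 4157 bases from this further start, lies chr15:93515366. There mid-aged mice 1 to 4 showed 36.6, 48.7, 37.7 and 47.0% and young mice 1 to 4 showed 61.0, 61.8, 55.6 and 52.9%, all lower in mid-aged mice, from at least 71 reads each (adjusted p = 0.226, quasi-binomial test). Nearby, chr15:93515406 was at 14.6% ± 3.13 and 27.7% ± 8.12 and was called without young mouse 1, with an adjusted p of 0.0119 against 0.173 with all mice. *Prickle2* had a start zone of 2.46 to 6.43% and 3.19 to 10.0% (15 CpGs, adjusted p = 0.802, limma). A CpG in its intron 8 showed 82.7% ± 6.94 and 63.5% ± 5.78 without overlap, from as few as 5 reads (adjusted p = 0.411, quasi-binomial test). The body of *Prickle2* was the least methylated of the 10, at 68.3% ± 0.928 and 67.7% ± 1.14. It includes CpGs near further annotated start sites of the gene. One, at chr6:92481277 and 115 bases from such a site, was at 3.59% ± 1.70 and 3.76% ± 1.88.

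Of 36 further genes of the pathway (Frizzled receptors, Dishevelled, Wnt ligands, Fat and Dachsous cadherins, effectors and ciliary polarity genes), all had tested CpGs, and 8 of their 2608 CpGs (0.307%) were called, against 0.163% of all tested CpGs. They lay in 3 genes, 2 higher and 6 lower in mid-aged mice, where 0.0615% and 0.102% of all tested CpGs were. *Wnt5a*, the ligand of Ror receptors, had both gains, in its intron 1. At chr14:28509370 mid-aged mice 1 to 4 showed 31.2, 22.9, 34.1 and 27.0% and young mice 1 to 4 showed 3.75, 11.2, 15.8 and 12.2% (adjusted p = 0.00653, quasi-binomial test), and chr14:28509413 had 24.3% ± 2.87 and 13.0% ± 1.44 (adjusted p = 0.0297). *Daam2*, a formin that acts downstream of Dishevelled, had 5 losses, of which 4 lay in its last exon between chr17:49458551 and chr17:49458568, close enough to share reads. The strongest was at chr17:49458555, with 36.7% ± 6.46 and 79.0% ± 9.48 (adjusted p = 0.00160). *Daam1*, the related formin, had 1 loss in intron 1, with 12.5% ± 11.7 and 56.6% ± 8.12 from as few as 7 reads (adjusted p = 0.0444).

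No upstream zone (23 tested), start zone (34) or body (35) of the 36 genes was called by limma. Their start zones had a median difference of 0.15 percentage points, beside 0.15 for all genes, with a range from -0.95 (*Gpc4*) to 2.23 (*Fzd3*, a Frizzled receptor). The start zones of the X-linked genes *Prickle3* and *Gpc4* were near 40%, at 40.9% and 38.5% in young mice, whereas those of the other pathway genes were under 5%. The largest body differences were those of *Gpc4*, at 57.4% ± 2.41 and 64.3% ± 2.44 (adjusted p = 0.138), *Daam2*, at 72.2% ± 1.80 and 79.0% ± 1.82 (adjusted p = 0.0772), and *Wnt5a*, at 23.2% ± 2.57 and 17.6% ± 4.02 (adjusted p = 0.352). A wider gap was found in the upstream zone of *Prickle3* (5 CpGs), at 46.0% ± 4.09 and 34.8% ± 3.78 (adjusted p = 0.340, limma).

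Among the 14645 start zones tested, *Ptk7* was the 8th from the top by difference, and 8 start zones had a difference of 20 or more percentage points. Of the 1361 with a young mean between 5 and 20%, the median difference was 0.41 percentage points, 17 differed by 10 or more and 2 by 20 or more. The start zones most like that of *Ptk7* over the 8 mice, by root mean square difference, were those of Gm29480 (4.78 percentage points), *C1ql3* (5.01), *Fam189b* (5.19), Gm9916 (5.77) and *Ehbp1l1* (6.36). *C1ql3*, a secreted C1q-like protein, was at 34.3% ± 2.31 and 4.16% ± 1.19 over 18 CpGs, and Gm29480 at 26.0% ± 1.55 and 13.1% ± 2.27 over 5 CpGs (SD, n = 4).

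**Figure D5:**
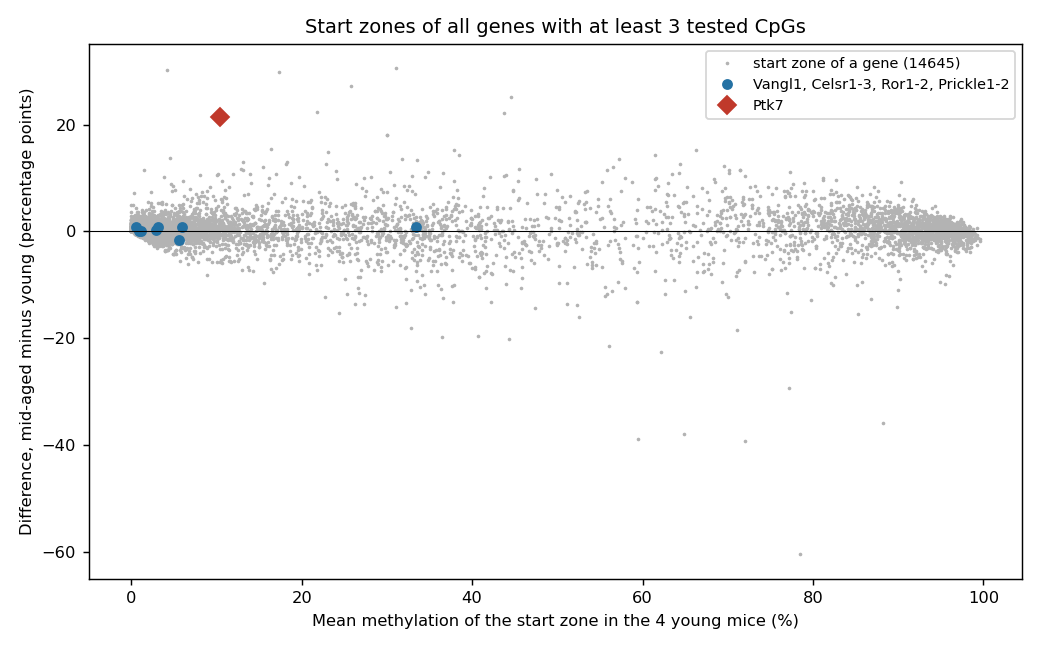
Difference in mean start-zone methylation, mid-aged minus young (percentage points), against the mean level in young mice (%), for the 14645 genes with at least 3 tested CpGs there (grey). *Ptk7* (red) lies at 10.4% and 21.4 percentage points, and the 8 other planar cell polarity genes with a tested start zone (blue) lie near 0.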

How the data were processed

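Hepatocyte DNA of 8 female C57Bl6/J mice, 4 of them mid-aged and 4 young, was read by RRBS. Per the labels and the study's methods, the authors made the files with the DEEP project pipeline on mm10, and the submitters' processing notes list BWA 0.6.2, Picard 1.115, SAMtools 1.3, Trim Galore 0.4.2 and FastQC. The deposited values are, for each strand of a CpG, a coverage given as a read count and the percent of it that was methylated, without further normalization. The methylation caller and the meaning of 2 further columns are not given in the sources used here, and those columns were not used.

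Methylated reads were recomputed from percent and coverage, the strands were added, and a CpG of an autosome, X or Y was tested if all 8 mice had at least 5 reads. Each CpG was fitted by quasi-binomial logistic regression on age, with a dispersion that limma moderated and that was kept at 1 or above, and its F test was adjusted by Benjamini-Hochberg over the whole set. Zones with at least 3 tested CpGs were compared on their mean percent by limma (trend), adjusted over all genes with that zone. Both tests were tested on simulated data. Annotation came from GENCODE vM21 and sequences from GRCm38 and RefSeq. R 4.3.3 (limma 3.58.1) and Python 3.11.15 (pandas 2.3.3, scipy 1.17.1, numpy 2.4.6, matplotlib 3.10.9) were used. Nothing in the labels says whether the mice shared cages or preparation days. The p-values take the mice as independent. They rest on a spread between mice that limma moderated over all CpGs or zones.

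The genes, the lists and the tests were chosen with earlier results of these data known. Named were the 10 genes, pathway genes with a call, the 3 CpGs of *Ptk7* with the largest called differences, the CpG with the largest difference in each other member, overlapping genes and the 5 start zones nearest to that of *Ptk7*. *Gpc4*, *Prickle3*, *Fzd3* and single values printed beside these were named after their values were seen. Identical entries made up at most 0.653% of any pair of libraries, so none was a duplicate. Alternatives were the read minimum, the minimum difference, limma on M values, a block on the mouse number, each strand alone, reads pooled over a zone, and leaving out each mouse.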

Additional observations from a re-analysis of the deposited data

Results flagged for a closer look

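Over 50 groups of 4 mice, formed by the zones of the 10 genes at each age, 3 held a mouse far from the others of its group, where chance alone gives about 1 in 20. In the upstream zone of *Celsr2*, young mouse 1 was at 4.90% and the other young mice at 0.810 to 1.43%. In the body of *Celsr2*, the same mouse was at 92.1% and the others at 90.7 to 90.9%. In the body of *Ror2*, young mouse 4 was at 73.6% and the others at 74.8 to 74.9%. The library of young mouse 1 also had the highest share of methylated reads, 56.1%, and its part in these values was not tested.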

How the results depend on the processing

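The start-zone difference of *Ptk7*, given as a description because the gene was picked for its calls, was 17.4 to 25.5 percentage points under the alternatives run and 21.4 with the replicate block. Same-numbered mice did not deviate together at single CpGs (correlations of -0.00252 to 0.00805 over 123314 CpGs). Counting error at single CpGs can hide shared deviations, so this does not settle whether the numbers pair mice. With the replicate block 0 CpGs were called in *Ptk7*, in the 9 other genes and in the whole set. An unadjusted p under 0.05 was then found at 60, 43 and 37327 CpGs. With limma on M values 2216 CpGs were called in all, 161 of them shared with the 1466 of the quasi-binomial test, 8 in *Ptk7* and 3 in the other genes, namely 1 each in *Ror1*, *Celsr3* and *Celsr1*, all with 0 or 100% in every young mouse. Leaving out 1 mouse gave 612 to 2405 calls in all, 15 to 35 in *Ptk7* and 0 to 2 in the other genes, the 2 (in *Ror1* and *Prickle1*) without young mouse 1. Calls in *Ptk7* fell by over 1.5 times without mid-aged mouse 1 (19), 2 (15), 3 (15) or 4 (15) or young mouse 2 (19). A minimum of 10 or 20 reads left 28 and 25 calls in *Ptk7* and a minimum difference of 10 percentage points left 31. The upstream difference of *Ptk7*, likewise a description, was 19.96 to 23.67 percentage points. Of the values for single zones under the alternatives, none reversed and 23 moved by more than 1 SD. A further 9, all for the upstream zone of *Ptk7*, no longer passed the adjusted p threshold that this zone passed with the main settings. At this depth 12.4% of the CpGs of *Ptk7* and 2.91 to 22.2% of those of the other genes could be tested, and single CpGs with 5 reads have wide intervals.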
